A study of Mus musculus with 2 samples.

Results

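Antiviral interferon-stimulated genes were followed across a pair of mouse bone marrow cultures, 1 from wildtype and 1 from Cpdm animals. The list holds 37 genes, chosen by name as antiviral genes that interferon switches on, with earlier results of these data known. Its counts are therefore no independent test. Of these, 35 had at least 1 probe set on the array that names no other gene, out of 18193 genes with such a probe set, and together they had 59 probe sets. Cpdm, short for chronic proliferative dermatitis, is a mouse mutant without functional SHARPIN, which belongs to the enzyme complex that builds linear ubiquitin chains at cytokine receptors. Both cultures grew for 10 days in medium with ascorbic acid (50 µg/ml) and β-glycerophosphate (10 mM), which favour bone-forming cells, and the labels name no other treatment. The cells were not sorted, so each array reads a mixture of marrow cell types. The sources used here do not give mouse strain, age or the number of animals per culture.

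Interferons are secreted by cells that sense foreign or misplaced nucleic acid. They bind surface receptors whose kinases activate transcription factors, and a complex that contains IRF9 then binds the interferon-stimulated response element (ISRE) of its target genes. Another motif, the gamma-activated site (GAS), serves mainly the response to interferon gamma. The products sense viral RNA, destroy or edit it, block translation, or restrain entry and release of virus particles. Marrow macrophages and stromal cells both respond to interferon.

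Each genotype was hybridised once, so no replicate spread, test or p-value can be given, and every difference describes these arrays. Values are MAS5 signals, the array software's linear brightness per probe set. A floor was set at the 40th percentile (18.5 in Cpdm and 18.7 in wildtype), and lower signals were raised to it for log2 ratios. A gene is called measured if its brightest probe set (by mean log2 signal) reached the floor in at least 1 array, and "at least" marks a fold with 1 array at the floor. The 18 spike-in probe sets, added in equal amounts to each sample, had log2 ratios of Cpdm over wildtype from -0.22 to 0.20. Pairs of probe sets of 1 gene differed with a robust SD of 0.32 on the log2 scale for a single probe set. Sharpin itself read 162 in Cpdm against 197 in wildtype and 107 against 120 by its other probe set; the array does not show whether the protein is made, so these values do not check the labels. Control probe sets for 18S ribosomal RNA had log2 ratios of -2.59, -3.75 and -2.37, and Xist, an RNA of female cells, read 1113 against 247. Both run alongside genotype, and their part in the results was not tested.

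Most members were brighter in the Cpdm array, by modest amounts. Among the 33 measured members, 12 (36.4%) exceeded wildtype by 2-fold or more in Cpdm, where 5.84% of 14055 measured genes passed that mark. Isg20 alone was at least 2-fold lower, 1 of 33 against 5.98% of all measured genes. The other 20 lay between, and 29 of the 33 had a log2 ratio above 0, beside 52.4% of all measured genes. With the mean over probe sets it was 32 of 33, since Herc6, Eif2ak2 and Dhx58 have probe sets on both sides of 0. The share of all measured genes above 0 was not counted that way, and their median log2 ratio was then 0.005. The median log2 ratio of the members was 0.75, or 1.68-fold, beside 0.03 for all measured genes. Mx1 and Mx2 were below the floor in both arrays, and Isg15 and Ifi44 had no probe set of their own.

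The difference was broad and shallow. At 1.5-fold, 21 members were higher (15.7% of all measured genes) and 2 were lower (13.5% of all measured genes). The lower ones were Isg20 and Herc6, and Herc6 has other probe sets with log2 ratios of 0.85 and at least 0.73, which would leave 1 lower. At 3-fold, Ifi27l2a and Oas2 were higher (1.54% of all measured genes) and no member was lower (2.43% of all measured genes). Ifit2, whose 2.34-fold is a lower bound, would also pass with the floor at the 20th percentile (log2 ratio 2.83) or with none (3.21). Of the 12 members past 2-fold, 9 lay under 2.5-fold, close to the mark. Against the spread between probe sets, 19 members lay above a log2 ratio of 0.64, which is 2 of the probe-set SDs and was passed by 13.8% of all measured genes. Counted by probe set, 14 of 51 measured member probe sets were at least 2-fold higher, beside 5.3% of all measured probe sets. Log2 ratios above 0 were seen in 44 of the 51, beside 50.6% of all measured probe sets.

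**Figure D1:**
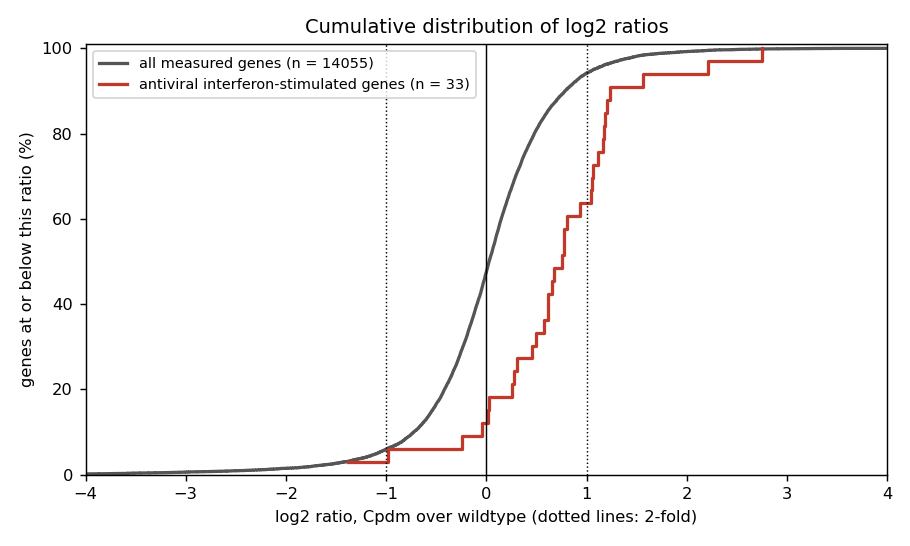
Share of genes (vertical axis, percent) at or below each log2 ratio of Cpdm over wildtype (horizontal axis, drawn from -4 to 4), for 14055 measured genes and for the 33 measured members. The member curve lies to the right of the curve of all genes over most of its length, with medians of 0.75 and 0.03, and meets it at the lower end, where Isg20 and Herc6 lie.

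The promoters of the genes show which of them carry the letters that interferon-activated factors bind. RefSeq promoter windows of build GRCm38.p6, 250 bases before to 50 bases after a start, were at hand for 28 of the 37 members. The ISRE core was searched as GAAA, any 2 bases and a further GAAA on either strand, and the GAS as TTC, any 3 bases and GAA, which reads the same on both strands. These 28 members had 37 windows. An ISRE match stood in 12 of the 37 windows (32.4%) and in 3.44% of all 32851 windows, and a GAS match in 21.6% and 8.30%. By gene, an ISRE match was found for 11 of the 28 members (39.3%), beside 3.99% of all 27025 genes with a window. It was found for 4 of 8 members that were at least 2-fold higher and for 6 of 17 within 2-fold. Only 8 of the 12 members past 2-fold had a window. Ifi27l2a, Oas2, Rtp4 and Parp14 had none. The matches are a description of letters and do not show binding.

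The 170 bases before the start follow for the measured members with an ISRE match there, then for Irf1 and Isg20, which have a GAS match only. They are shown because members with like motifs differed in ratio, from 2.95-fold higher for Trim30a to 1.21-fold higher for Rsad2 among those with an ISRE. The other Trim30a probe set, of nearly the same brightness, gave 1.86-fold. Capitals mark the ISRE and GAS matches. In Bst2 a GAS match runs into overlapping ISRE matches, and in Oas1a a separate GAS match comes before 2 overlapping ISRE matches.
Ifit1 (chr19:34640719-34640888, plus strand): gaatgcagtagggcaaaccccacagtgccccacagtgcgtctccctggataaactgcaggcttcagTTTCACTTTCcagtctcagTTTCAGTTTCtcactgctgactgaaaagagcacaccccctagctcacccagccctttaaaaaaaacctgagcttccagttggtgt
Ifit3 (chr19:34583359-34583528, plus strand): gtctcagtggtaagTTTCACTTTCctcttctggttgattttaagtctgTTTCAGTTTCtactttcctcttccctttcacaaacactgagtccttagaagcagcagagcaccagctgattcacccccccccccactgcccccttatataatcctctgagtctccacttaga
Bst2 (chr8:71537473-71537642, minus strand): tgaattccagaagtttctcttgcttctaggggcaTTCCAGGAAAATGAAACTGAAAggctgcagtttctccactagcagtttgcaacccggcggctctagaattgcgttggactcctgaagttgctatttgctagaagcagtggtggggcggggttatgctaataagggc
Trim30a (chr7:104465194-104465363, minus strand): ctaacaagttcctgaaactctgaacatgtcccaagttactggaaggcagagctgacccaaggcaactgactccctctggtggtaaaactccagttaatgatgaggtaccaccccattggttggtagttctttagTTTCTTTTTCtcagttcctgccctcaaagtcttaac
Oas1a (chr5:120907526-120907695, minus strand): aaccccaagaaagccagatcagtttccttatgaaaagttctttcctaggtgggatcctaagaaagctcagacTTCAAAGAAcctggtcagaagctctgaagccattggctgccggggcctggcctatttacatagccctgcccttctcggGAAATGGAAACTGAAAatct
Oas3 (chr5:120777660-120777829, minus strand): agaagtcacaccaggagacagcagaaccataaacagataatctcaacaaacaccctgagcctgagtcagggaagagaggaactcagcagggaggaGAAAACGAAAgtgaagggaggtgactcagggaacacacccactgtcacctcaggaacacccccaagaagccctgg
Rsad2 (chr12:26456453-26456622, minus strand): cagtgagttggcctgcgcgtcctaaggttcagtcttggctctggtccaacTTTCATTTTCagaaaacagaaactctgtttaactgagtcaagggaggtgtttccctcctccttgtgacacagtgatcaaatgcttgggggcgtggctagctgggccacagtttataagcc
Irf1 (chr11:53769844-53770013, plus strand): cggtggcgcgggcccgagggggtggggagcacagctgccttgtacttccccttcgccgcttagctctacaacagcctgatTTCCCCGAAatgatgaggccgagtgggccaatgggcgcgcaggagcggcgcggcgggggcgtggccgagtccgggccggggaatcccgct
Isg20 (chr7:78913254-78913423, plus strand): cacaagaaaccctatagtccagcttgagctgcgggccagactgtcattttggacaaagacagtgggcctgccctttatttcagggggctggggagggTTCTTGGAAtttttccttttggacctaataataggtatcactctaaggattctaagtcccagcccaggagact

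Ifit1 and Ifit3 each held 2 separate ISRE matches in that stretch, and both were slightly over 2-fold higher. Irf1 and Isg20 shared the GAS letters yet stood on opposite sides, 2.06-fold higher and 2.61-fold lower. Ddx58, Ifih1 and Eif2ak2 had their ISRE match after the start and were under 2-fold by their brightest probe sets. Oas1a and Rsad2, with ISRE matches before the start, were also under 2-fold. Oas3, with a match before it as well, was at least 1.49-fold higher. Trim30a, at 2.95-fold, has a match after the start in a further window as well.

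**Figure D2:**
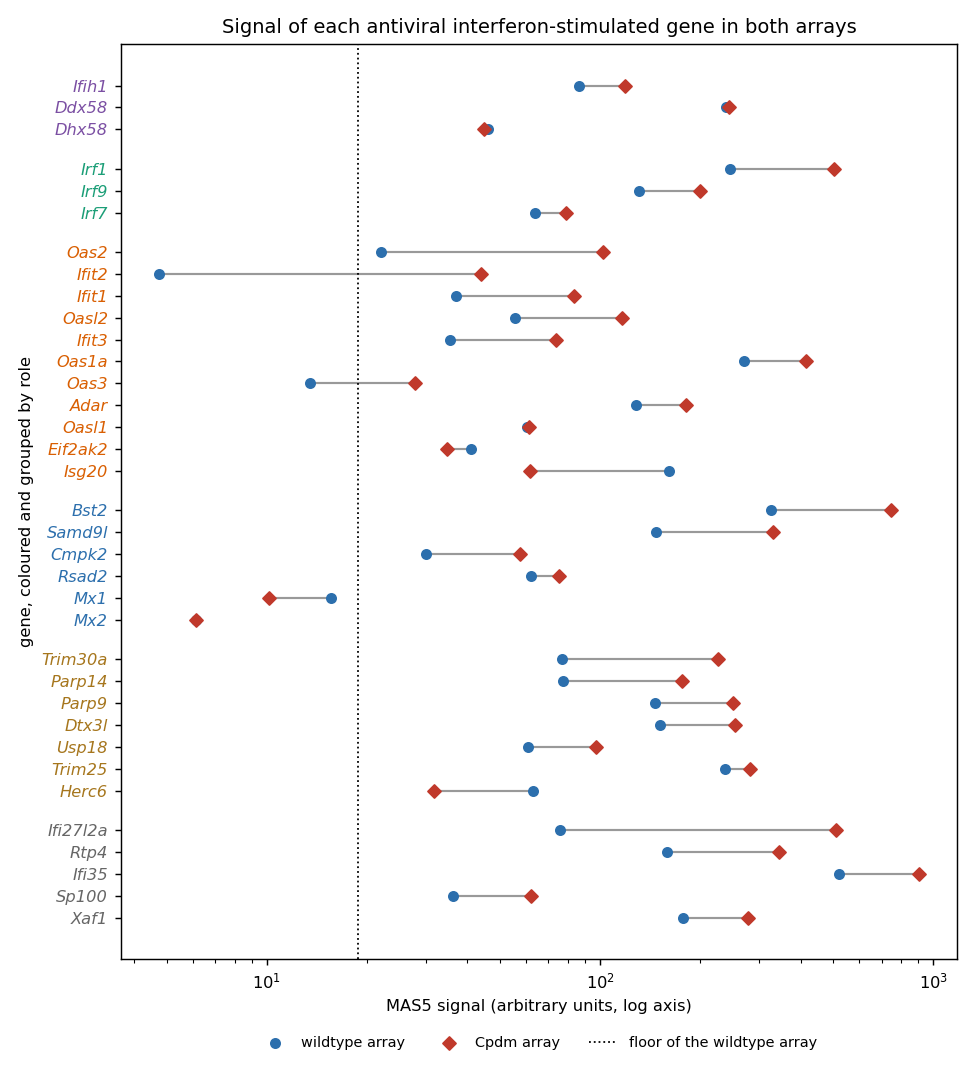
MAS5 signal (horizontal log axis, arbitrary units) of the 35 members with a probe set, in the wildtype array (circles) and the Cpdm array (diamonds), grouped by role, with the floor of 18.7 as a dotted line. Most diamonds lie to the right of their circles. Isg20, Herc6, Eif2ak2 and Dhx58 lie the other way round by their brightest probe sets, and Mx1 and Mx2 lie below the floor.

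The receptors that sense viral RNA inside the cell were under 2-fold by their brightest probe sets, with log2 ratios of 0.03, 0.46 and -0.05 for Ddx58, Ifih1 and Dhx58. With the mean over probe sets these were 0.22, 0.46 and 0.40, where probe sets below the floor in both arrays enter with a ratio near 0. Ddx58, which encodes RIG-I, read 243 in Cpdm and 239 in wildtype, although a dimmer probe set read 39.4 against 25.1. Ifih1, which encodes the long double-stranded RNA sensor MDA5, read 118 against 86.2, or 1.37-fold higher. Dhx58, which encodes the regulatory helicase LGP2, read 44.7 against 46.2. A further Dhx58 probe set read 45.2 against 3.50, at least 2.41-fold higher, so the probe sets of this gene disagree. By the brightest probe sets none of the 3 sensors reached 2-fold, and their median log2 ratio was 0.03, the value of all measured genes. The base for this and each later count by role or family is 5.84% higher and 5.98% lower among all measured genes.

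The 3 interferon regulatory factors on the list were all brighter in Cpdm, by unequal amounts. Irf1, an early transcription factor that interferon gamma induces strongly, read 505 against 245, or 2.06-fold higher. Irf9, the DNA-binding part of the complex that reads the ISRE, was 1.53-fold higher, with a Cpdm signal at 153% of the wildtype signal of 131. Irf7, the factor that amplifies interferon alpha production, read 78.8 against 63.9, or 1.23-fold. Irf1 alone passed 2-fold. Each of these genes has 1 probe set.

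The IFIT proteins bind foreign RNA ends and hold back translation, and the 3 on the list passed 2-fold. A relative outside the list, Ifit1bl1, named after its value was seen, read 9.65 in Cpdm, under the floor, against 20.3 in wildtype, at least 1.10-fold lower. Ifit1 read 83.3 against 36.9, a 2.26-fold difference. Ifit3 read 73.5 against 35.5, or 2.07-fold, and its probes may also bind the closely related Ifit3b. Ifit2 read 43.9 against 4.73, at least 2.34-fold higher because the wildtype signal lies under the floor. All 3 signals are low. With a floor at the 60th percentile all 3 wildtype signals lie under it. The log2 ratios were then lower bounds of 0.95, 0.77 and 0.03 for Ifit1, Ifit3 and Ifit2, which do not reach the 2-fold mark.

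The oligoadenylate synthetase family differed from gene to gene. Its enzymes sense double-stranded RNA and make the signal that activates RNase L. Oas2 read 102 in Cpdm against 22.0 in wildtype, or 4.63-fold, a log2 ratio of 2.21. The wildtype signal is near the floor, and with the floor at the 60th percentile the log2 ratio was 1.24, a lower bound. Oasl2 read 116 against 55.6, or 2.09-fold, and Oas1a 414 against 271, or 1.53-fold. Related Oas1 copies may contribute to the Oas1a signal. Oas3 read 27.9 against 13.5, at least 1.49-fold higher, and Oasl1, a non-catalytic relative, was equal at 61.3 and 60.5. Thus 2 of 5 passed 2-fold, and the neighbours Oasl1 and Oasl2 stood apart from each other.

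Other proteins that act on RNA went both ways. Isg20, a 3′ to 5′ exonuclease that degrades single-stranded RNA, read 61.8 against 161, or 2.61-fold lower, by its only probe set. Adar, which edits adenosine in double-stranded RNA, read 181 against 128, or 1.41-fold higher, and 57.0 against 59.9 by another probe set. Eif2ak2, which encodes the translation-blocking kinase PKR, read 34.7 against 40.9 by its brightest probe set. Its other probe sets read 32.9 against 28.6 and 35.7 against 21.0, so its direction is not settled. Of the 11 members in this role, counting the IFIT and OAS genes, 5 were at least 2-fold higher and 1 lower, beside 5.84% and 5.98% of all measured genes.

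Proteins that act on virus entry, replication and release were brighter in Cpdm where they could be measured. Bst2, which encodes tetherin and holds budding virus at the cell surface, read 749 against 325, or 2.30-fold higher. Samd9l, a restriction factor for poxviruses, read 331 against 147, or 2.25-fold. Cmpk2, a mitochondrial nucleotide kinase, read 57.3 against 30.0, or 1.91-fold, just under the mark. Its chromosomal neighbour Rsad2, which encodes the radical enzyme viperin, read 75.1 against 62.0, and its 3 probe sets were all within 1.21-fold. Mx1 and Mx2, dynamin-like GTPases, read 10.1 against 15.6 and 6.14 against 6.15, too low to compare. Thus 2 of 4 measured genes of this role passed 2-fold, and all 4 had log2 ratios above 0.

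The ubiquitin, ISG15 and ADP-ribose enzymes gave 2 genes past 2-fold among 7 measured. Trim30a, a tripartite-motif protein that limits Toll-like receptor signalling, read 227 against 76.8, or 2.95-fold, and 180 against 96.5, or 1.86-fold, by its other probe set. The probe sets are of nearly the same brightness, and by the other one Trim30a would not pass 2-fold. Parp14, a mono-ADP-ribosyltransferase, read 176 against 77.2, or 2.27-fold, and at least 1.14-fold by a dim second probe set. Its neighbours Parp9 and Dtx3l, whose proteins work as a pair in histone ubiquitylation, read 251 against 146 and 254 against 151. Those are 1.72-fold and 1.68-fold higher, nearly the same, but a second Dtx3l probe set went the other way, at 61.5 against 92.2. Usp18, the protease that removes ISG15 and restrains the interferon receptor, read 96.9 against 60.6, or 1.60-fold higher. Trim25, the ligase known for activating RIG-I, read 283 against 237, and all 3 of its probe sets were within 1.19-fold.

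Herc6, the main ligase that attaches ISG15 in mice, could not be given a direction. Its brightest probe set read 31.7 against 62.8, or 1.98-fold lower. A probe set of nearly the same brightness read 58.3 against 32.3, and a dimmer one was at least 1.66-fold higher. The ISG15 protein itself was not read by a probe set of its own. The probe set that names Isg15 together with the gene model Gm9706 read 97.0 in Cpdm and 109 in wildtype, a log2 ratio of -0.16, near equal.

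The remaining members included the largest ratio at this floor; with the floor at the 20th percentile or none, Ifit2 was larger. Ifi27l2a, a small mitochondrial protein strongly induced by type I interferon, read 510.5 against 75.6, or 6.75-fold higher. Rtp4, a receptor transporter with antiviral action, read 344 against 159, or 2.16-fold, while a second probe set was below the floor in both arrays. Ifi35, a partner of NMI, read 908 against 521, or 1.74-fold, and 202 against 124 and 177 against 164 by its other probe sets. Xaf1, a proapoptotic protein, read 278 against 177, or 1.57-fold, and 28.3 against 29.4 by a dim probe set. Sp100, a nuclear body component, read 62.0 against 36.2, or 1.71-fold, and 55.5 against 22.2 by its other probe set, the wider difference. All 5 had log2 ratios above 0 by their brightest probe set.

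Probe sets of one gene bound how far single values can be read. Of 13 members with several measured probe sets, 7 had all of them on 1 side of 0 and 6 did not: Herc6, Dtx3l, Dhx58, Eif2ak2, Xaf1 and Adar. None of those 6 is among the 12 members past 2-fold. Of those 12, Trim30a had a second measured probe set at 1.86-fold and Parp14 one at no less than 1.14-fold, a lower bound, and the other 10 rest on 1 measured probe set each.

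**Figure D3:**
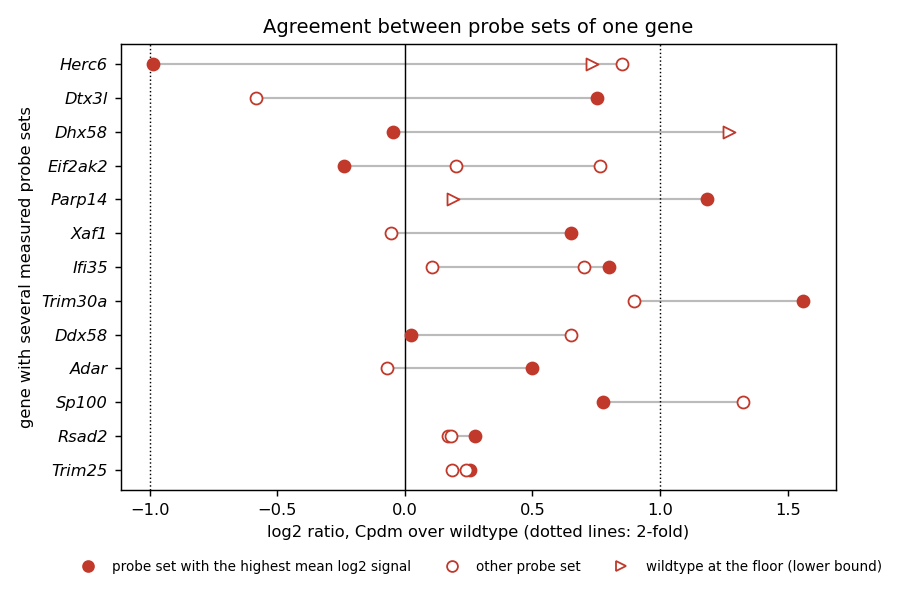
Log2 ratio of Cpdm over wildtype (horizontal axis) for each measured probe set of the 13 members that have several, ordered by their spread. Filled points are the brightest probe set of a gene by mean log2 signal, open points the others, and triangles are lower bounds. Herc6 spans -0.99 to 0.85, while the Rsad2 and Trim25 probe sets lie together.

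Most interferon genes were too dim to compare, and most receptor genes were modestly brighter in Cpdm. Of 9 interferon genes with a probe set, 6 were below the floor in both arrays, among them the interferon gamma gene Ifng at 0.755 and 0.342. Ifna1 read 32.7 against 38.3, and Ifnb1, the gene of interferon beta, was at the edge of the floor with 21.5 against 18.3; these 3 were named after their values were seen. The alpha interferon genes are near-identical copies, so their probe sets are uncertain. Among receptor genes, Ifnar1 was at 214 against 123, or 1.74-fold, Il10rb 1.62-fold and Ifngr2 1.52-fold higher, and Ifngr1 at 749 against 537. Ifnar2, the partner chain of Ifnar1, went the other way at 656 against 719, and was named after its value was seen. Other probe sets gave 2.34-fold higher for Il10rb and 1.09-fold lower for Ifngr2. Ifnlr1, the chain that receives interferon lambda, was at least 2.32-fold lower, at 9.62 against 42.9, and was the 1 of 9 measured ligand and receptor genes past 2-fold. The median log2 ratio of this list was 0.20.

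Among transducers and inhibitors, 3 of 15 measured genes were at least 2-fold higher and none was lower; their median was 0.34 on the log2 scale. Irf8, a factor of macrophage and dendritic cell development, read 539 against 164, or 3.29-fold, and 3.06-fold by its other probe set. Irf5, a factor of inflammatory macrophages, was 2.34-fold higher and 1.16-fold by another probe set. The feedback inhibitor gene Socs3 was 2.01-fold higher, with 203 against 144 and 102 against 59.9 for further probe sets, and Irf2, a repressor that competes with Irf1, was 1.96-fold higher. These leading genes include factors that macrophages express at high levels. Stat2, named after its value was seen, read 41.0 against 32.4.

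Genes that sense nucleic acid upstream of interferon had 4 of 21 measured members at least 2-fold higher and none lower, with a median of 0.19. Ikbke, the kinase of IRF3 and IRF7, read 187 against 58.8, or 3.18-fold. Tlr7, the endosomal receptor for single-stranded RNA, was 2.76-fold higher, and its further probe sets gave 3.66-fold and 2.43-fold. Nlrc3, a restraining factor of this pathway, and Zbp1, a sensor of Z-form nucleic acid, were 2.05-fold and 2.02-fold higher. A second Nlrc3 probe set gave 1.04-fold, near the floor, and a second Zbp1 probe set at least 1.87-fold.

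Interferon-induced genes outside the 37 were also mostly brighter in Cpdm. Of 55 measured, 13 were at least 2-fold higher and 1 was lower, 48 had log2 ratios above 0, and the median was 0.58. Mndal, of the p200 family of DNA-binding proteins, read 536 against 137, or 3.91-fold, and 3.75-fold by a second probe set. Slfn8 was 3.80-fold and Trim12a 3.46-fold higher, and Trim5 at least 2.06-fold. Ifitm1, which encodes a membrane protein that blocks virus entry, was the one lower gene, at 49.0 against 312 or 6.36-fold. Of 10 measured genes that interferon gamma chiefly induces, 6 were at least 2-fold higher, with a median of 1.18. They were led by H2-Aa at 5.68-fold, Gbp2 at 5.46-fold, Cxcl10 at 3.24-fold and Gbp3 at 3.13-fold, with other probe sets at 1.75-fold and at least 3.68-fold and 1.03-fold for H2-Aa and at 6.75-fold for Gbp2. In the same list Wars and Ciita had log2 ratios below 0, at 121 against 175 and 20.4 against 27.0, and were named after their values were seen. Cxcl9, Ido1 and Nos2 of this list were below the floor in both arrays. Among all measured genes 5.84% were at least 2-fold higher, 5.98% at least 2-fold lower and 52.4% above 0. These shares are the base for the counts of each pathway list.

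**Figure D4:**
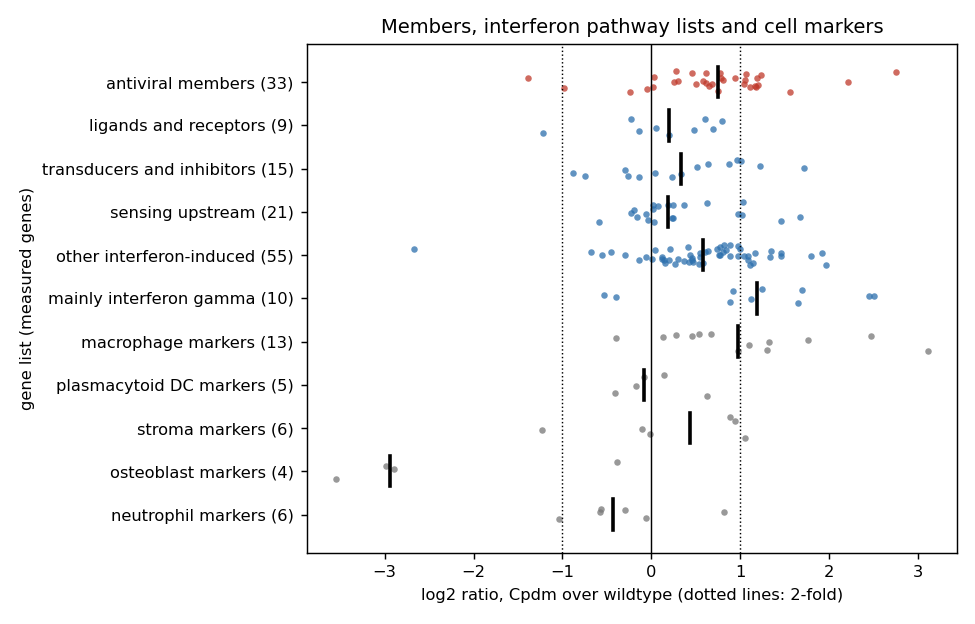
Log2 ratio of Cpdm over wildtype (horizontal axis) of each measured gene in the 37-gene list, in 5 interferon pathway lists and in 5 lists of cell markers, with the number of measured genes in brackets and a black bar at each median. Points are genes, scattered vertically for sight only. The medians are 0.75 for the members, 0.97 for macrophage markers and -2.94 for osteoblast markers.

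Cell markers moved alongside. Of 13 macrophage and monocyte markers measured, 6 were at least 2-fold higher and none was at least 2-fold lower. The base for this and each later marker count is 5.84% higher and 5.98% lower among all measured genes. The median log2 ratio of the 13 markers was 0.97, with a summed signal of 18921 in Cpdm against 13429 in wildtype. None of these markers was below the floor in both arrays. Summed signals here and below are as deposited and include those under the floor. Marco was at least 8.64-fold and Cx3cr1 5.53-fold higher, and Ccr2, Ly86 and Mertk also passed 2-fold. Fcgr1, the high-affinity IgG receptor gene, which interferon also induces, was 3.39-fold higher. Below the mark, Adgre1 was 1.96-fold, Csf1r 1.37-fold and the pan-macrophage gene Cd68 1.21-fold higher. Lyz2 was the 1 marker of this list with a log2 ratio below 0, at 2657 in Cpdm against 3507 in wildtype, or 1.32-fold lower. Of 4 measured osteoblast markers 3 were at least 2-fold lower, with a median of -2.94 and a summed signal of 3749 against 9240.5. Marrow stroma markers had 1 of 6 higher and 1 lower, with summed signals of 5513 against 4599. In such bulk samples more cells of a type and more RNA per cell cannot be told apart. The part of these shifts in the members' ratios, Isg20 and Ifitm1 included, was not tested.

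Markers of plasmacytoid dendritic cells, the main makers of interferon alpha in blood, were low or near equal. None of 5 measured passed 2-fold and the median was -0.09, with summed signals of 768 and 812. Siglech read 30.8 against 19.9, and Ccr9 and Ly6d were below the floor in both arrays. Neutrophil markers had 1 of 6 measured at least 2-fold lower, and 5 of the 6 had log2 ratios below 0, with a median of -0.43. Their summed signals were 336 and 332, with Csf3r the 1 measured gene above 0, at 193 against 110. B cell markers summed to 80.3 and 91.7, and T and NK cell markers to 158 and 199.8, with none of 3 measured in either list past 2-fold. Of 4 endothelial markers 1 was measured, within 2-fold.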

How the data were processed

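Messenger RNA of 2 cultures was read on 1 Affymetrix array each, from 5 µg total RNA per the labels' protocols. The authors deposited linear MAS5 signal intensity values for 45101 probe sets; the software was GCOS 1.4 with MAS5, per the submitters' processing notes. The trimmed mean of each array, without the lowest and highest 2%, was 100.0. The sources used here do not give the scaling target or background settings, and the table holds no detection calls.

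Of 45037 probe sets that are not controls, 34945 named 1 gene in the platform annotation, 932 several and 9160 none. All 59 member probe sets matched a RefSeq gene by Entrez identifier with an unchanged symbol. Signals were used as deposited, floored per array at the 40th percentile, and compared as the log2 ratio of Cpdm over wildtype with a 2-fold mark. The probe set of highest mean log2 signal stood for a gene. Probe sets ending in _s_at or _x_at can bind related transcripts. The number of arrays limits the precision. The calculation was tested on simulated data. Python 3.11.15, numpy 2.4.6, pandas 2.3.3 and matplotlib 3.10.9 were used.

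All members are named. From each pathway list the 4 largest differences above the floor in both arrays, and any bound past 2-fold, are named. Members and lists were chosen with earlier results of these data known. Alternatives were other scalings, floors, probe set choices and folds.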

Additional observations from a re-analysis of the deposited data

Results flagged for a closer look

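A probe set outside the comparisons read higher in Cpdm than in the wildtype control. It names both Trim30d and Trim30a, read 52.5 in Cpdm and 31.3 in wildtype, and had a log2 ratio of 0.75, beside 1.56 and 0.90 for the probe sets of Trim30a alone.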

How the results depend on the processing

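The count of 12 members at least 2-fold higher stayed within 1.5 times, between 9 and 13, under other scalings, floors and probe set choices. These were median, quantile and spike-in scaling, floors at the 20th and 60th percentile, no floor, and genes above the floor in both arrays. The others were the mean over probe sets, the probe set with the smallest ratio, and leaving out _s_at, _x_at and _a_at probe sets. The count was 9 of 25 measured members (36%) without those probe sets and 9 of 31 with the floor at the 60th percentile, beside 12 of 33. This count became 21 at a fold of 1.5 and 2 at a fold of 3 by construction. The 1 member lower became 2 at a fold of 1.5 (Isg20, and Herc6 by its brightest probe set, or 1 by the other Herc6 probe sets), 0 at a fold of 3, and 0 without _s_at, _x_at and _a_at probe sets, since the only Isg20 probe set is of that kind. The median log2 ratio of 0.75 moved to 0.58 with the mean over probe sets and 0.62 with the smallest ratio. The mean takes in probe sets below the floor in both arrays, which enter with a ratio near 0. Through such a probe set Rtp4 moved from 1.11 to 0.55 and Cmpk2 from 0.94 to 0.46. Over all genes, 821 higher and 840 lower of 14055 became 1741 and 1885 of 18193 with no floor, 1265 and 1397 of 16540 with the floor at the 20th percentile, and 543 and 644 of 14055 with the mean over probe sets. No member past 2-fold changed sign under these alternatives, which was largely fixed in advance. Among them only Trim30a and Parp14 have a second measured probe set, so the choice of probe set could not reverse the others. Floors and scalings also leave little room for a reversal. With the floor at the 60th percentile 10 of the 13 members past 2-fold kept that size, and the IFIT ratios became lower bounds under the mark. With the mean over probe sets or the smallest ratio 11 of 13 kept it. Herc6, Eif2ak2, Dtx3l, Dhx58, Xaf1 and Adar changed sign with the choice of probe set. The median of the list of genes that interferon gamma chiefly induces lay between 0.91 and 1.21 under alternatives chosen after seeing the data, and that of ligands and receptors between 0.05 and 0.61. No scaling moved the median of all genes by over 0.1. No paired analysis was possible because each genotype has 1 array, and no array could be left out. Without detection calls, differences between low signals, such as those of the IFIT genes, rest on the floor.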

Other observations

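Several members lie side by side on a chromosome in the RefSeq annotation, and neighbours did not always have like ratios. Parp14, Dtx3l and Parp9 on chromosome 16 follow each other with no other protein-coding gene between them, and had log2 ratios of 1.19, 0.75 and 0.78. Ifit2 and Ifit3 on chromosome 19 are direct neighbours, at 1.23 (a lower bound) and 1.05, and Ifit1 follows after 3 further protein-coding genes at 1.17. Unlike these, Oas2 and Oas3 on chromosome 5 had values of 2.21 and 0.58 (a lower bound), Oasl2 and Oasl1 values of 1.06 and 0.02, and Rsad2 and Cmpk2 on chromosome 12 values of 0.28 and 0.94.

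Beyond the members, 405 measured genes had an ISRE match in their promoter window. Of these, 7.90% were higher in Cpdm by 2-fold or more and 4.44% lower, and the median log2 ratio was 0.10. The 10852 measured genes with a window but no match had 5.43% higher, 5.84% lower and a median of 0.02. Genes with a GAS match, 940 in all, had 5.85% higher, 6.70% lower and a median of 0.04. These shares were not tested.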
